A study of Homo sapiens with 4 samples.

Results

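The regions described here were promoter peaks of H3K27ac, acetylation of lysine 27 on histone H3, in RD cells. They were found in both control and SKP2 knockdown cells, and no MYOD peak of either arm overlapped the control peak. RD is an established cell line from a rhabdomyosarcoma, a childhood tumor of muscle lineage, and stands for the fusion-negative form (FN-RMS). Cells infected with a vector for a non-targeting shRNA (shSCR, control) were compared with cells infected with a vector for an shRNA against SKP2 (shSKP2), the substrate receptor of an SCF ubiquitin ligase. Chromatin was cut with micrococcal nuclease and immunoprecipitated for H3K27ac or MYOD, which gave 4 libraries with 1 library per group. All came from 1 cell line in growth medium, no replicate was at hand, and differences between the arms were therefore not tested.

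A control H3K27ac peak was a member when its summit lay within 2 kb of a protein-coding transcription start site (TSS), a knockdown H3K27ac peak overlapped it by at least 1 bp and no peak of either MYOD list overlapped it. The MYOD rule, and the term MYOD-free, concern this control peak alone. The often wider knockdown peak could overlap a MYOD peak, as at ID1 and CAND1. Members were thus chosen by the positions of measured peaks, and their overlap, class and values between the arms are given as a description. Of the 25356 control H3K27ac peaks, 9518 (37.5%) lay at promoters. A knockdown peak overlapped 8904 of these, or 93.5% against 86.4% over all control peaks. No MYOD peak overlapped 7628 of the 8904 (85.7%, 95% Wilson interval 84.9 to 86.4%), against 83.6% of all shared peaks. These 7628 members made up 30.1% of the control list. The knockdown peaks with the largest overlap of each member numbered 6929 of 38457, and 50 members were overlapped by 2 knockdown peaks. The median member was 405 bp wide with a summit fold of 4.68 over background. Depth is known only through the lowest local background of each list, 1.75 fragments for control and 1.61 for knockdown H3K27ac, and all intervals cover counting error only. The methods mention a Drosophila spike-in, but whether it scaled the peak calls is not stated, so each fold is an enrichment within its own library.

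H3K27ac is laid down by the acetyltransferases CBP and p300 on the nucleosomes that flank active promoters and enhancers. Promoters of widely expressed genes mostly lie in CpG islands, start transcription at several nearby positions and rely on factors such as SP1, ETS proteins, NF-Y, NRF1 and YY1. MYOD is a basic helix-loop-helix factor that binds E-boxes, in muscle mostly CAGCTG, and acts largely through distal enhancers.

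The sequences that recurred at these promoters are shown first. For each of 10 motifs, the highest-scoring member promoter with a match in the 150 bases before its TSS and no annotated exon there was chosen, which gave 8 genes because ZNF460 and DHPS each led for a pair of motifs. Sequences are from hg38, 5′ to 3′ on the strand of the gene, and end at the base before the TSS. Capitals mark every match to a searched motif on either strand.
ZNF460: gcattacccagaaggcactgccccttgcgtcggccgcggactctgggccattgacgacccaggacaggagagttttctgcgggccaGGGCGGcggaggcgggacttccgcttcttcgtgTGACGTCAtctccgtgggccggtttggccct
DHPS: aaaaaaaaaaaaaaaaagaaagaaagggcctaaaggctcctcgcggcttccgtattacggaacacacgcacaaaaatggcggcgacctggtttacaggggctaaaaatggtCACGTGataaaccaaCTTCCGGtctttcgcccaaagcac
BCCIP: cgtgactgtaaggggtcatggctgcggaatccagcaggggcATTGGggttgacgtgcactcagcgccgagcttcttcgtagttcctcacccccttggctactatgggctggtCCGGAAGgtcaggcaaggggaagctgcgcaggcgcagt
UROS: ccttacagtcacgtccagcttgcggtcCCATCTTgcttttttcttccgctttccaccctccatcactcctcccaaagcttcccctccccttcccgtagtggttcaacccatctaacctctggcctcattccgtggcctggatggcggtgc
PHF14: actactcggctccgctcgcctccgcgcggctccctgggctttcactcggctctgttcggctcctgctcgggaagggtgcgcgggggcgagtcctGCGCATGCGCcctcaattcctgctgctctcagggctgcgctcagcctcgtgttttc
HSPA1B: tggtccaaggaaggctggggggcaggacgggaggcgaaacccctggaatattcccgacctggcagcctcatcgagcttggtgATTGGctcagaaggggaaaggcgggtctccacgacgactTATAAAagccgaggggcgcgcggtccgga
NUDCD3: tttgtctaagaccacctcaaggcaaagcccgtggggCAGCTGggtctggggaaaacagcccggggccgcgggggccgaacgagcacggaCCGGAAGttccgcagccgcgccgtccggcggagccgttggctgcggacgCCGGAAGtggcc
S100A2: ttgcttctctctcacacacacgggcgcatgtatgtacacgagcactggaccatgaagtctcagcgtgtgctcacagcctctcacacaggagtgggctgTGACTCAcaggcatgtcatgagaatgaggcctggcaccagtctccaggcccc

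ZNF460 (chr19:57280335-57280484, plus strand), a KRAB zinc finger gene, held a GC box (GGGCGG) 64 bases before its TSS and a cAMP response element (TGACGTCA) 31 bases before it. DHPS (chr19:12681881-12682030, minus strand) encodes deoxyhypusine synthase, which activates the translation factor eIF5A, and held an ETS motif (CCGGAAG, here on the opposite strand) 24 bases and a CACGTG E-box 39 bases before its TSS. BCCIP (chr10:125823396-125823545, plus strand) and UROS (chr10:125823259-125823408, minus strand) start 288 bp apart in opposite directions, so their stretches overlap and a single H3K27ac peak served both. BCCIP, a partner of BRCA2, held an inverted CCAAT box and an ETS motif. UROS, an enzyme of heme synthesis, held an inverted YY1 motif (AAGATGG). PHF14 (chr7:10973722-10973871, plus strand), a PHD-finger protein gene, held the palindromic pair of NRF1 half-sites (GCGCATGCG) 56 bases before its TSS. HSPA1B (chr6:31827588-31827737, plus strand), which encodes an inducible HSP70 and has a near-identical neighbour in HSPA1A so that its peak is uncertain, held TATAAA 29 bases before its TSS. NUDCD3 (chr7:44490659-44490808, minus strand), a dynein cofactor gene, held CAGCTG 114 bases before its TSS and a pair of ETS motifs. S100A2 (chr1:153565845-153565994, minus strand), which encodes a calcium-binding protein, held an AP-1 site (TGAGTCA, on the opposite strand). A match is a run of letters and does not show that a factor was bound.

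Over all members the same letters were counted in the 250 bases before and 50 after the canonical TSS of each gene, with GENCODE release 44 and hg38. Of 20015 protein-coding genes, 6997 (35.0%, 34.3 to 35.6%) had a member summit within 2 kb, and 9568 (47.8%) had no H3K27ac peak at their promoter in either list. Member promoters were CpG islands in the main: observed over expected CpG reached 0.6 at 91.8% of them, at 43.2% of promoters without H3K27ac and at 67.4% of all promoters. The first 2 shares differed by 48.6 percentage points (95% Newcombe interval 47.4 to 49.8). The ETS motif CCGGAAG was found at 24.5% of member promoters, 5.06% of promoters without H3K27ac and 14.1% of all promoters, and the difference was 19.5 points (18.4 to 20.6). The YY1 motif stood at 10.1% against 3.86%, a difference of 6.23 points (5.44 to 7.05), and its matches centred on the start itself, with a median position of 7 bases after the TSS. The NRF1 motif stood at 4.86% against 0.805%, the cAMP response element at 3.92% against 1.48%, CCAAT at 38.6% against 34.6% and CACGTG at 10.8% against 6.48%. TATAAA went the other way, at 5.16% of member promoters against 14.8%, a difference of -9.62 points (-10.5 to -8.73). Of the 413 TATAAA matches at member promoters, 35.8% began 40 to 21 bases before the TSS, the place of a functional TATA box. The AP-1 site was also rarer, at 2.27% against 4.70%. Against promoters with shared H3K27ac and MYOD the differences were smaller, with 5.67 points (3.51 to 8.10) for CpG-rich sequence and 3.03 points (0.123 to 5.73) for the ETS motif. The intervals spanned 0 for the YY1 motif (1.20 points, -0.898 to 3.01) and TATAAA (1.03 points, -0.514 to 2.25).

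Base composition moved with these classes, since the median GC content was 65.3% at member promoters and 59.3% at promoters without H3K27ac. Among CpG-rich promoters alone, a comparison added after the data were seen, the ETS difference was 17.1 points (15.8 to 18.5) and the YY1 difference 7.91 points (7.01 to 8.80). The GC box (GGGCGG), at 73.6% of member promoters against 47.2% of promoters without H3K27ac, changed direction there, with 76.6% against 82.2% and a difference of -5.61 points (-7.16 to -4.04). The TATAAA difference shrank to -1.82 points (-2.74 to -0.940), and the AP-1 difference of -0.314 points had an interval that spanned 0 (-0.881 to 0.217).

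**Figure D1:**
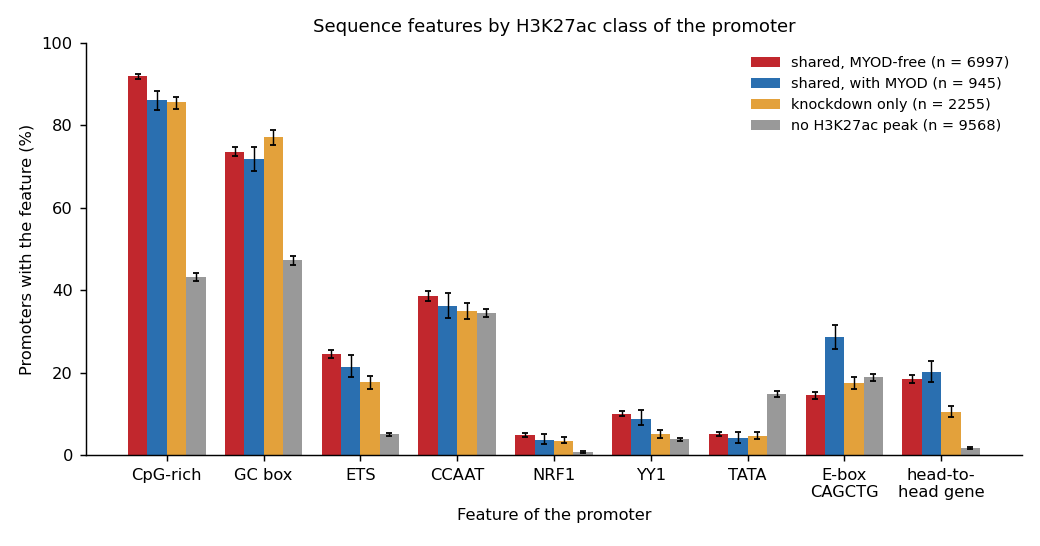
Share of promoters (%, y axis) with each sequence feature (x axis) in 4 classes of protein-coding promoters, with 95% Wilson intervals as error bars. Promoters with a shared MYOD-free peak reached 91.8% for CpG-rich sequence and 24.5% for the ETS motif against 43.2% and 5.06% without H3K27ac. For the CAGCTG E-box they reached 14.6% against 28.6% at shared promoters with MYOD. Of the promoters with a shared MYOD-free peak, 7.62% also had a shared peak with MYOD.

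Some member promoters lay between genes that start back to back. A head-to-head TSS lay within 1 kb upstream of 1295 member promoters (18.5%), at a median distance of 235 bp, against 1.69% of promoters without H3K27ac and 10.6% of promoters with H3K27ac after the knockdown only. The first difference was 16.8 points (15.9 to 17.8) and the second 7.95 points (6.35 to 9.47). Both follow in part from the classes, since a single peak within 2 kb of both starts made both genes member promoters. Both genes of such a pair were counted, also in the groups by control score. Promoters with shared H3K27ac and MYOD had such a neighbour in 20.1%, and the difference of -1.60 points had an interval that spanned 0 (-4.42 to 1.01). Promoters with higher control scores had a neighbour more often, from 13.7% among the 1750 lowest-scoring member promoters to 25.4% among the 1749 highest. Over the same steps the YY1 motif went from 7.49 to 12.3% and CAGCTG from 17.9 to 11.8%.

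The summits left the TSS itself bare. Only 74 of 7628 control summits (0.970%) lay between 100 bases before and 50 after the TSS, where active promoters are depleted of nucleosomes. By contrast 1842 (24.1%) lay 100 to 220 bases after it, the range of the first nucleosome downstream, and 1166 (15.3%) lay 200 to 400 bases before it. The knockdown summits of the same peaks fell in these ranges at 0.905%, 25.4% and 16.9%. Overall 60.5% of control summits (59.4 to 61.6%) lay downstream of the TSS, against 58.9% of shared promoter peaks with MYOD, a difference of 1.68 points whose interval spanned 0 (-1.20 to 4.62). In the range of the first downstream nucleosome, 24.1% of member summits compared with 28.5% of those with MYOD, a difference of -4.30 points (-7.01 to -1.70), and with 17.3% of promoter peaks found only in the knockdown list, a difference of 6.88 points (5.31 to 8.42). By annotation, 39.8% of member summits were in the first intron, 39.5% upstream of the gene, 9.78% in the 5′ UTR part of an exon and 9.16% in coding sequence. Summits of peaks next to a head-to-head gene lay upstream in 16.6%, against 42.3% of the other members, a difference of -25.7 points (-28.4 to -22.8). This follows in part from naming each summit by its nearest TSS, since a summit between the genes of such a pair can be downstream of the other one.

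**Figure D2:**
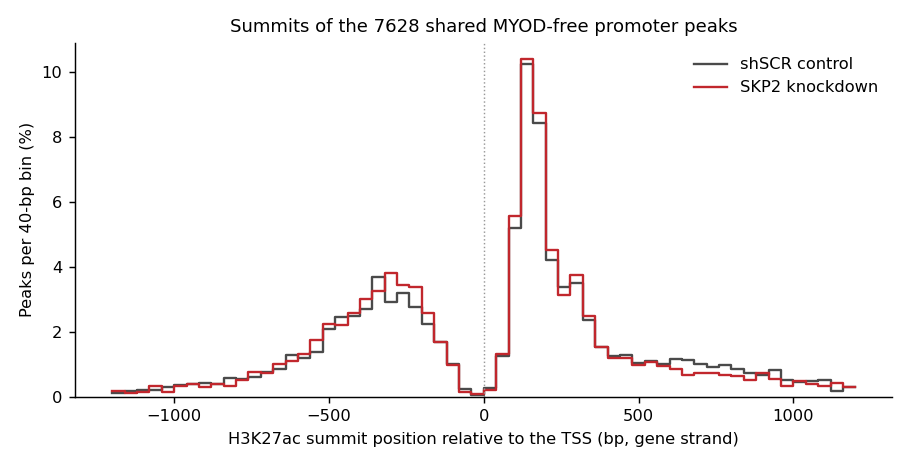
Position of H3K27ac summits relative to the nearest TSS (x axis, bp on the strand of the gene, drawn to 1200 bp on either side) as the percentage of the 7628 members per 40-bp bin (y axis), for the control summit and for the summit of the overlapping knockdown peak. Both lines are near 0 at the TSS and peak between 120 and 160 bp after it, at 10.3% in the control and 10.4% after the knockdown.

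Most promoters had a single member. Of 6218 genes that were nearest to a member, 4920 had 1, 1188 had 2, 108 had 3 and 2 had 4. In 854 of the 1188 pairs (71.9%) the summits straddled the TSS, with medians of -397 and 250.5 bp and a median gap of 699 bp. After the knockdown, 624 peaks joined 2 members each, 36 joined 3 and 1 joined 4. ZNF460 was such a promoter, with control peaks at chr19:57279937-57280322 and chr19:57280522-57280954 and a single knockdown peak of 1539 bp over both.

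Peaks at members were higher and wider in the knockdown list, by about as much as over all shared peaks. This background includes the 7628 members and their promoters, the latter being most of the promoters with H3K27ac in both lists. The values are therefore drawn together, and shared peaks outside the members were not measured apart. The median summit fold was 4.68 (quartiles 3.83 and 5.92) in the control and 5.97 in the overlapping knockdown peaks, and the median ratio was 1.21 (1.02 to 1.45) against 1.20 over all 21910 shared peaks. The knockdown fold was at least 1.5 times the control at 1621 members (21.3%, background 19.2%) and at most 1/1.5 of it at 58 (0.760%, background 0.561%). Median width went from 405 to 815 bp, and 88.4% of members were overlapped by a wider knockdown peak, where the background was 86.1%. Within 2 kb of the TSS, peaks covered a median of 625 bp in the control and 1085 bp after the knockdown. This ratio had a median of 1.60 over 6997 member promoters and 1.58 over all 8151 promoters with H3K27ac in both lists. It reached 1.5 at 3884 member promoters (55.5%, background 54.7%) and was 1/1.5 or less at 108 (1.54%, background 1.68%). The members' shares thus lay near those of all shared peaks, of which they are a part.

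The size of the ratio moved with the control score. Its median was 1.40 among the 1907 members with the lowest scores, then 1.24, 1.18 and 1.08 in the groups of 1907 above them. The width ratio went likewise from 2.10 to 1.40. These groups were drawn on the control score itself, which also enters the ratio, so the trend is given as a description. The recovered number of fragments at the summit had a median of 26 in the control and 43 after the knockdown, and the local background at the same summits was also higher, with a median ratio of 1.36 at members and 1.27 over all shared peaks.

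Summits of members moved by a median of 67 bp (quartiles 24 and 207) between the lists. The knockdown summit lay within 75 bp of the control summit at 4021 of 7628 members (52.7%), next to 10696 of all 21910 shared peaks. It lay beyond 500 bp at 10.5% of members and on the other side of the TSS at 9.37%, shares for which no background was computed. Among the 4021 members with summits within 75 bp, a comparison added after the data were seen, the median fold ratio was 1.18, as over all such shared peaks (1.18). There 655 (16.3%, background 15.2%) reached 1.5 and 29 (0.721%, background 0.533%) were at 1/1.5 or less.

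**Figure D3:**
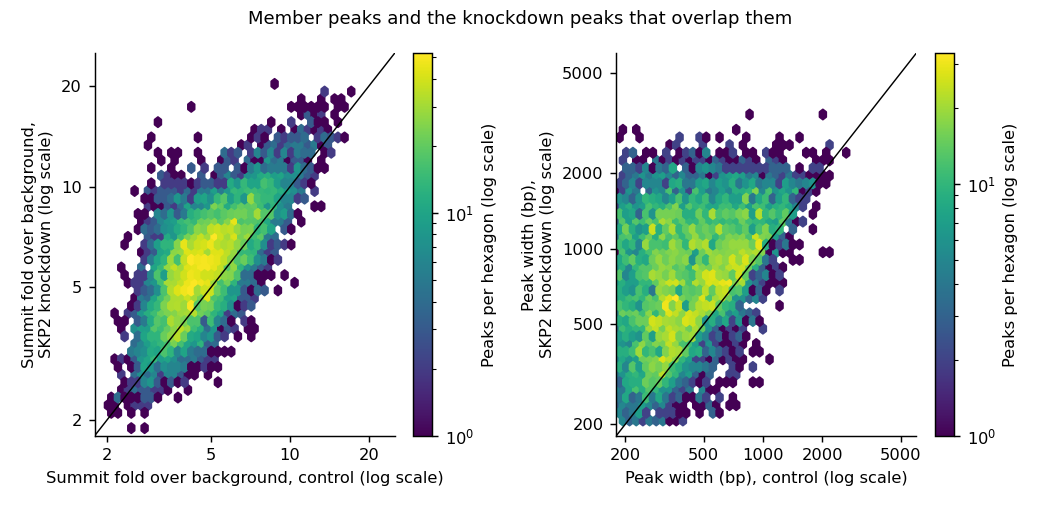
Summit fold over background (left) and peak width in bp (right) of each member in the control (x axis) and of the overlapping knockdown peak (y axis), on log axes, with color for the number of peaks per hexagon and a line where both are equal. Median fold was 4.68 in the control and 5.97 after the knockdown, and median width 405 and 815 bp, so most points lie above the line.

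ZNF460 led the members by score with a fold of 14.7 (counting interval 12.4 to 17.2) in the control and 12.7 (10.9 to 14.6) after the knockdown. ANAPC7 (chr12:110403297-110404084), a subunit of the anaphase-promoting complex that drives exit from mitosis, had folds of 16.0 and 17.04. RBBP5 (chr1:205121830-205122258), a core subunit of the MLL histone methyltransferases, had 16.5 and 13.9. Their summits lay at -377, -241 and -149 bp from the TSS, and in each the counting intervals of both lists overlapped.

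PSMD1 (chr2:231056622-231057714), a subunit of the 19S proteasome cap, had folds of 13.5 and 11.6 and almost the same width in both lists, 1093 and 1131 bp. ZBTB8OS (chr1:32650219-32650918), which encodes the archease of the tRNA ligase complex, had folds of 12.2 and 10.8. TMED1 (chr19:10835925-10836758), a cargo receptor between endoplasmic reticulum and Golgi, had 14.4 and 14.5. SPATA2 (chr20:49915492-49915809), an adaptor for the deubiquitinase CYLD, had folds of 15.0 and 18.2, and its covered bases grew from 318 to 1096. PHF14 (chr7:10973307-10973669) had folds of 13.2 (10.97 to 15.8) and 8.84 (7.35 to 10.6), intervals that did not overlap. Its summit held 119 fragments in the control and 121 after the knockdown, so the lower fold went with a higher local background. Its covered bases went from 1164 to 1694. The remaining leading peaks were nearest to ENSG00000285589, with a peak that also covered the TSS of DHPS and folds of 15.0 and 14.0, and to ENSG00000235007, with folds of 8.45 and 9.33.

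**Figure D4:**
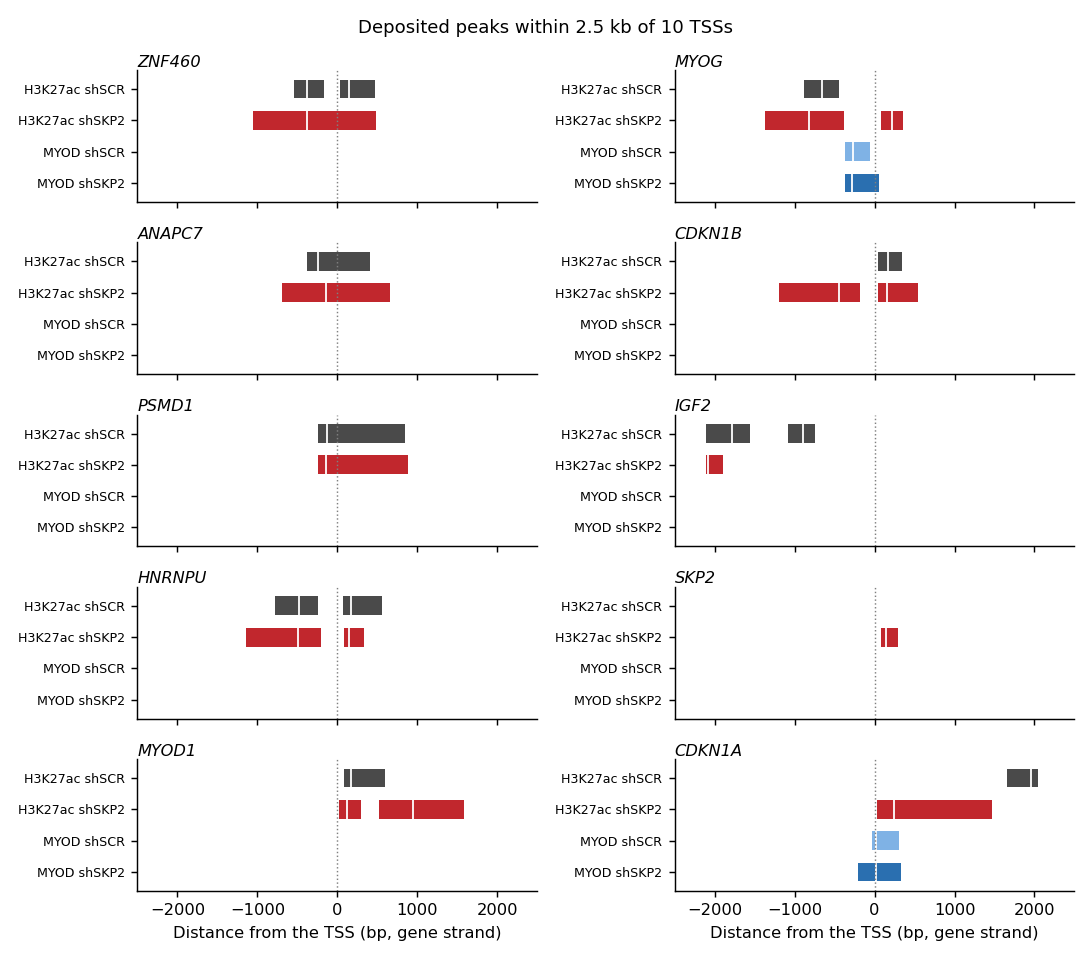
Deposited peaks of the 4 lists within 2.5 kb of 10 TSSs, with distance from the TSS on the x axis (bp, strand of the gene), one row per library and a white line at each summit. Knockdown H3K27ac peaks are wider at ZNF460, ANAPC7, MYOG and CDKN1B, MYOD peaks stand only at MYOG and CDKN1A, and SKP2 has a knockdown peak of 220 bp and no control peak.

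Genes of the basic cell machinery mostly had member promoters, next to 35.0% of all protein-coding genes. Cytosolic ribosomal protein genes were members in 75 of 78 cases, proteasome subunit genes in 28 of 31, the chaperonin TRiC and heat shock genes in 20 of 23, spliceosome genes in 44 of 51 and translation initiation factors in 33 of 40. RNA polymerase II and Mediator genes followed with 54 of 68, aminoacyl-tRNA synthetases with 29 of 37, mitochondrial ribosomal proteins with 60 of 77, DNA repair with 34 of 45, oxidative phosphorylation with 56 of 75, cell cycle and DNA replication with 52 of 75 and nuclear pore with 20 of 30. Reference genes used for normalisation were members in 22 of 26 cases. All 31 proteasome genes had shared H3K27ac, since a MYOD peak overlapped the shared peaks of the other 3. At the other end none of 415 olfactory receptor genes and 1 of 55 keratin genes, KRT18, was a member.

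**Figure D5:**
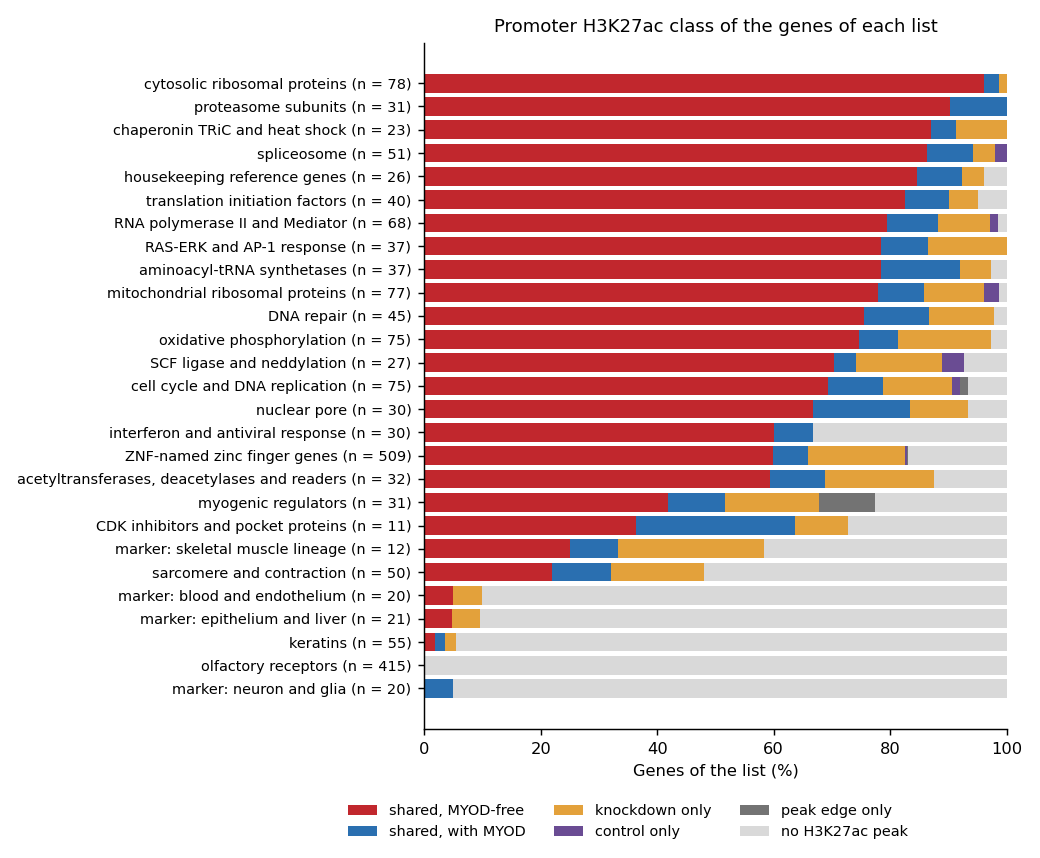
Share of the genes of each list (%, x axis) by the H3K27ac class of the promoter, one bar per list with the number of genes. A shared MYOD-free peak lay at the promoters of 75 of 78 cytosolic ribosomal protein genes and 28 of 31 proteasome genes. It did so at 11 of 50 sarcomere genes and 0 of 415 olfactory receptor genes.

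The covered bases of these lists grew by different amounts from control to knockdown. The median ratio was 1.17 at the 28 proteasome promoters and 1.40 at the 52 cell cycle and the 34 DNA repair promoters, but 1.76 at mitochondrial ribosomal protein and 1.90 at aminoacyl-tRNA synthetase promoters, next to 1.60 over all members. Proteasome promoters were also covered widely to begin with, since the width of their best control peak had a median of 776 bp, against 367 bp for the synthetases. PSMB1, the gene of a catalytic-core subunit, and TBP, the TATA-binding protein, share the peak at chr6:170552396-170553331. Their covered bases went from 1290 to 613, while the summit fold was 9.20 in the control and 10.2 after the knockdown.

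Single members of these lists had the following values. RPS19 (chr19:41859791-41860132), a protein of the small ribosomal subunit, had folds of 11.1 and 13.6. MRPL42 (chr12:93467504-93468176), of the large mitochondrial subunit, had 11.2 and 11.4. SF3B4 (chr1:149927564-149928673), a splicing factor of the U2 particle, had 9.47 and 9.71. At all 3 the counting intervals of both lists overlapped.

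UQCRH (chr1:46303176-46303823), a hinge protein of respiratory complex III, kept a fold near its control value (8.08 and 7.43) while its best peak widened from 648 to 2262 bp. EIF1 (chr17:41688870-41689300), which guides the choice of start codon, had 11.7 and 11.1. NUP205 (chr7:135557679-135558612), of the inner ring of the nuclear pore, had 14.2 and 14.0, and CCT5 (chr5:10249282-10250626), of the TRiC ring, 8.998 and 10.1. KAT7 (chr17:49788665-49789040), the acetyltransferase of the HBO1 complex, had 15.4 and 13.9. The counting intervals overlapped at each of these genes. Covered bases went from 1345 to 1542 at CCT5, from 633 to 1189 at EIF1 and from 934 to 858 at NUP205.

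The lists differed in what their member promoters held. CCAAT, the box that NF-Y binds, was found at 35 of the 52 cell cycle and DNA replication promoters (67.3%) against 38.6% of all member promoters. The YY1 motif stood at 19 of 56 oxidative phosphorylation promoters (33.9%) and 20 of 60 mitochondrial ribosomal protein promoters (33.3%) against 10.1%, and the NRF1 motif at 9 of the 56 (16.1%) against 4.86%. The ETS motif stood at 135 of 305 promoters of genes named ZNF (44.3%) against 24.5%. DNA repair genes started head to head in 14 of 34 cases (41.2%) against 18.5%. The share was 39.3% for oxidative phosphorylation and 35.0% for mitochondrial ribosomal protein genes, but 7.14% for proteasome genes. These are counts over small lists and were not tested. Sarcomere and interferon promoters stood apart, since 2 of 11 and 8 of 18 were CpG-rich, against 91.8% of all member promoters.

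Genes named ZNF, most of which encode zinc finger repressors of the KRAB type, were members in 305 of 509 cases. ZNF140 (chr12:133080327-133081289) stood second to ZNF460 with folds of 12.4 and 12.8. RAS-ERK and AP-1 response genes were members in 29 of 37 cases. NRAS (chr1:114716384-114716737), the RAS gene mutated in RD cells, had folds of 7.82 and 10.0, and JUND (chr19:18282124-18282918), an AP-1 subunit, 5.98 and 6.99. In this list the median fold of the best control peak was 4.03, while it was 5.25 to 6.08 in the machinery lists above.

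Interferon and antiviral genes were members in 18 of 30 cases (60.0%, 42.3 to 75.4%), against 35.0% of all protein-coding genes. IFI44 (chr1:78648907-78649698) had folds of 5.49 and 4.56, and IRF7 (chr11:615624-615987), the factor that amplifies interferon induction, 8.33 and 6.37. Their covered bases went from 1780 to 1668 at IFI44 and from 364 to 822 at IRF7. MX1, OASL and CXCL10 had no H3K27ac peak in either list, while OAS1, OAS2, OAS3, IFIT1, IFIT2, IFIT3 and ISG15 were members.

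Of 50 sarcomere and contraction genes 11 were members (22.0%, 12.7 to 35.2%, against 35.0% of all protein-coding genes). Another 5 shared H3K27ac with MYOD, 8 had a knockdown summit but no shared control summit and 26 had no H3K27ac peak. NEB (chr2:151734059-151734465), which encodes the thin-filament ruler nebulin, had folds of 6.32 and 7.12 and widths of 407 and 1128 bp. ENO3 (chr17:4949185-4949489), the muscle enolase gene, had 4.95 and 3.73, with the summit at -1843 bp from the TSS. The myosin heavy chain genes MYH1, MYH2, MYH3, MYH4, MYH7 and MYH8 had no H3K27ac peak within 2 kb in either list.

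Of 31 myogenic regulators 13 were members (41.9%, 26.4 to 59.2%, with 35.0% again inside the interval). Another 3 shared H3K27ac with MYOD and 5 had a knockdown summit but no shared control summit. A peak edge only reached 3, and 7 had no H3K27ac peak. The members were MYOD1, MYOG, ID1, ID3, SNAI2, ZEB1, SIX4, EYA1, TCF3, TCF4, TEAD1, TEAD4 and VGLL2. ID1 and ID3 are antagonists of MYOD, SNAI2 and ZEB1 repress its targets, and TCF3 and TCF4 are the E proteins with which it pairs. Their folds were moderate, with a median of 3.75, and covered bases reached 1.5 times the control at 8 of the 13, near the background of 54.7%.

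MYOD1 itself lacked a MYOD peak at its promoter, since the nearest lay 5.11 kb from its H3K27ac peak in the control list and 5.07 kb in the other. Its H3K27ac peak (chr11:17719655-17720168, summit in the 5′ UTR 171 bp after the TSS) had a fold of 4.61 (3.12 to 6.59) in the control and 3.63 (2.35 to 5.37) after the knockdown, intervals that overlapped. A second knockdown peak of 1068 bp further into the gene took the covered bases from 514 to 1349.

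MYOG, the factor that starts terminal differentiation, met the rule only by a narrow margin. Its peak (chr1:203086459-203086892) had folds of 3.75 (2.76 to 4.97) and 3.52 (2.73 to 4.48), and covered bases went from 434 to 1271. A MYOD peak with a fold of 6.99 in the control and 5.77 after the knockdown began 0.077 kb from this peak on the side of the TSS, and the knockdown one reached 60 bp past the TSS. After the knockdown a further H3K27ac peak of 281 bp lay on the other side of it. No H3K27ac peak overlapped the MYOD summit in either list.

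ID1 (chr20:31604501-31605101) had folds of 4.49 and 5.94 and a knockdown peak of 1937 bp, and the nearest MYOD peak lay 7.63 kb from its control H3K27ac peak in the control list and 0.01 kb from the same peak in the knockdown list, inside the stretch of the wider knockdown H3K27ac peak. SNAI2 kept its fold (4.35 and 4.21) while its covered bases went from 586 to 1671. TEAD4 (chr12:2958282-2958899), a factor of the Hippo pathway, had 618 covered bases in the control and 431 after the knockdown. TCF4 and ZEB1 had the largest ratios of the list, 5.52 and 3.10, from small control peaks of 293 and 236 bp.

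The labelled lineage was checked with 12 muscle markers. MYOD1, MYOG and CHRNA1, a subunit of the acetylcholine receptor, were members, CDH15 was shared with MYOD, and ACTC1 and TTN had knockdown summits only. DES, MYF5, MYF6, MYMK and PAX7 had no H3K27ac peak at the canonical promoter. Of 20 neuron and glia markers none was a member and 19 had no peak. Blood and endothelium had 1 of 20, TEK, and epithelium and liver 1 of 21, KRT18, with 18 and 19 without any peak. In a bulk library a larger share of cells with the mark and more of the mark per cell cannot be told apart.

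Genes around SKP2 were examined in the list of the SCF ligase and neddylation, where 19 of 27 were members and 1 shared H3K27ac with MYOD. In the same list 4 had a knockdown summit but no shared control summit, 1 had a control summit only and 2 had no H3K27ac peak. SKP2 itself was not a member. Within 2 kb of its canonical TSS the control list had no peak and the knockdown list had one of 220 bp with a fold of 2.88. Other parts of the gene, where the paper reports an intronic enhancer with H3K27ac, were not examined. Peak lists give no measure of SKP2 transcript, so the knockdown could not be checked in them. SKP1 (chr5:134176708-134177229), the adaptor that joins SKP2 to the ligase, had folds of 7.28 (5.43 to 9.58) and 9.09 (7.46 to 10.97), and its covered bases went from 522 to 1531. CUL1 (chr7:148699850-148700159), the scaffold, had a weak peak with folds of 3.46 and 3.13. RBX1 (chr22:40951904-40952247), the RING subunit, had 4.13 and 6.13.

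CKS1B (chr1:154973890-154974389), the cofactor with which SKP2 recognises p27, had folds of 4.44 and 4.62 on a broad promoter that was covered over 1873 and 2460 bp. Of the COP9 signalosome, which removes NEDD8 from cullins, COPS2, COPS3, COPS4, COPS5, COPS6, COPS7A and COPS8 were members. COPS3 (chr17:17280850-17281273) had folds of 9.81 and 9.54 while its covered bases went from 424 to 1444. UBE2M (chr19:58558691-58559592) and NAE1 (chr16:66830553-66830883), enzymes of the NEDD8 cascade, had folds of 8.14 and 7.998 and of 4.06 and 6.93. FBXW7 (chr4:152536407-152536843), the receptor for cyclin E and MYC, had 7.80 and 7.51 and 623 and 620 covered bases. Covered bases reached 1.5 times the control at 14 of the 19, against the background of 54.7% given above.

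Of 11 genes of CDK inhibitors and pocket proteins 4 were members (36.4%, 15.2 to 64.6%), near the 35.0% of all protein-coding genes. CDKN1B (chr12:12717415-12717709, summit in the 5′ UTR), which encodes p27, a substrate of SKP2, had folds of 2.66 (1.88 to 3.67) and 3.65 (2.77 to 4.72), intervals that overlapped. A further knockdown peak of 1002 bp before the TSS took its covered bases from 295 to 1501. CDKN2D (chr19:10569269-10569946), which encodes p19, went from 7.85 to 5.42 with 678 and 635 covered bases. RB1 (chr13:48303320-48303660) had folds of 6.98 and 6.51 and RBL2 (chr16:53434500-53434821) 7.35 and 5.17, with covered bases from 341 to 987 and from 322 to 797.

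CDKN1A, which encodes p21, was not a member, because its control peak 1956 bp after the TSS and its knockdown peak of 1437 bp at the TSS did not overlap. MYOD peaks of both lists lay on its TSS. CDKN1C, the gene of p57, had no H3K27ac peak within 2 kb of its canonical TSS in either list, nor did MYL1, a myosin light chain. Other parts of these genes were not examined. MYBPH, a myosin-binding protein, had a knockdown peak only, with 428 covered bases.

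Some member promoters changed far more or less than the rest. Among those with at least 500 covered bases in the control, the largest ratios were 4.22 at LEMD2, an inner nuclear membrane protein, 3.88 at PRRX1, a homeobox factor of mesenchyme, 3.80 at TFPI, an inhibitor of coagulation, 3.75 at PALMD and 3.66 at EXTL3, an enzyme of heparan sulfate synthesis. At LEMD2 (chr6:33789404-33789646) the covered bases went from 517 to 2183, and at PRRX1 (chr1:170664415-170664742) from 521 to 2020 with folds of 3.25 and 4.54. In all 5 the control peaks were narrow and weak, with folds of 2.24 to 3.67.

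The smallest ratio was 0.134 at IGF2, the fetal growth factor gene. Its control peaks covered 781 bp, and 105 bp were left in the knockdown by the edge of a peak with a fold of 2.43 (chr11:2140945-2141497 in the control, fold 3.18). APAF1, the gene of the apoptosome scaffold, and its head-to-head neighbour IKBIP went from 1257 to 383 bp (chr12:98645370-98645780), although the fold at the remaining peak was 3.16 and 3.99. LRCH1 went from 934 to 297 bp and ERI1 from 722 to 240 bp. These were exceptions against a median ratio of 1.60.

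The largest fold ratios came from peaks that the knockdown joined. Among members with a -log10 p of at least 10 they were 2.87 at the downstream peak of ZNF460, 2.77 at MRPS12, 2.63 at PSTK, 2.62 at SARAF and 2.57 at NFYC, the gene of an NF-Y subunit. In each, the knockdown peak had its summit elsewhere, as at ZNF460, where the control summit was 150 bp after and the knockdown summit 377 bp before the TSS. MRPS12 and its neighbour SARS2 start 181 bp apart and share the knockdown peak of 1188 bp, so its fold of 11.7 was compared with 4.21 at the MRPS12 side and 8.74 at the SARS2 side. These ratios therefore compare different positions.

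The smallest fold ratios had both summits on the same side of the TSS. HNRNPU (chr1:244863987-244864474), an abundant nuclear RNA-binding protein, went from 5.23 (3.81 to 6.997) to 2.56 (1.77 to 3.58) at the peak 176 bp after its TSS, intervals that did not overlap, while the peak before its TSS went from 5.31 to 6.47. SP4 (chr7:21427473-21427822), a factor that binds GC boxes, went from 10.2 (7.75 to 13.3) to 5.28 (3.68 to 7.35), which also did not overlap. CDK1 (chr10:60778508-60779120), the kinase of mitotic entry, went from 8.97 (6.71 to 11.8) to 4.81 (3.26 to 6.88), with a small overlap of the intervals. SLF1 and C5orf34 went from 7.39 to 3.66 and from 7.12 to 3.66, and at both the intervals overlapped. With 7628 members ranked, values at the ends of the order are extremes by construction, and without replicates they were not tested.

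MYOD peaks were absent by the rule, while the E-box CAGCTG was not used by it. A lower CAGCTG share than at peaks with MYOD still follows in part from the rule, since MYOD binds this E-box. CAGCTG lay within 100 bp of 8.25% of member summits (7.65 to 8.88%) and 16.3% of the 1276 summits of shared promoter peaks with MYOD, a difference of -8.06 points (-10.3 to -6.03). The difference was -2.87 points within 50 bp of the summit. It was -4.55 points when a MYOD peak within 1 kb, instead of an overlapping one, set both groups. Shared distal peaks without MYOD had it at 8.17%, and the difference to members was 0.0802 points with an interval that spanned 0 (-0.721 to 0.894). Promoter peaks without MYOD had it at 8.63% in the control list only and at 8.87% in the knockdown list only. Over the promoter window the E-box stood at 14.6% of member promoters, 28.6% of promoters whose shared peaks had MYOD, a difference of -14.0 points (-17.1 to -11.1), and 17.7% of all promoters. The other E-box, CACGTG, which MYC and USF bind, did not differ so, at 10.8% and 11.1%, a difference of -0.335 points (-2.61 to 1.66).

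The nearest MYOD peak of either list lay at a median gap of 49.7 kb, within 10 kb of 1606 members (21.1%) and within 1 kb of 837 (10.97%). Of the 6997 member promoters, 533 (7.62%) also had a shared H3K27ac peak with MYOD within 2 kb of the TSS. Shared promoter peaks with MYOD were wider and higher than members in the control, with a median width of 564.5 bp and a fold of 5.22, against 405 bp and 4.68. The width difference follows in part from the rule, since a wider peak more readily meets a MYOD peak.

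Members were spread over the genome. The share of protein-coding genes with a member was 23.6% on chromosome X (20.9 to 26.6%), 25.9% on chromosome 21 and 26.9% on chromosome 13, and reached 40.3% on chromosome 2. Chromosome 19, rich in genes named ZNF, had 38.5%.

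The thresholds passed through a continuum. The edges concern single peaks, and several of these genes, such as PTPRK, NTMT1, ZNF844 and FADS1, had another member peak. The outermost members in distance were peaks at LRRC41, MSANTD3 and NEK7 with summits 1998, 1994 and 1992 bp from the TSS, and peaks at FADS1, H2BC17 and RUSC1 lay outside at 2010, 2011 and 2016 bp. Peaks at RUFY2, CEBPG and ELF2 were touched by a MYOD peak without overlap, while peaks at IL6, CC2D1B and TMEM271 were left out for an overlap of 1, 2 and 2 bp. Peaks at PTPRK, DNAJB6 and BIN1 were members by 1, 5 and 7 bp of overlap with a knockdown peak, and peaks at TRIP6, ZNF844 and NTMT1 missed one by 0, 2 and 4 bp. Folds on both sides were alike, from 2.85 to 3.67 inside and 3.14 to 4.72 outside for distance to the TSS.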

How the data were processed

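The files were 4 lists of MACS3 peaks, called per library from RD cells against an input library, without pooling. Per the study's methods, reads were aligned to GRCh38, and peaks in an exclusion list were removed. BWA 0.7.17, MACS3 and deepTools are the tools in the submitters' processing notes. Each peak carries a ratio that the authors deposited, the fold enrichment of its summit pileup over local background. The -log10 p and -log10 q, also deposited, are those of the summit, and 10 times the -log10 p, truncated, was deposited as the score. Stated and observed p thresholds differed, so lists were used as deposited.

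Chromosomes 1 to 22, X and Y were used, so each H3K27ac list lost 1 peak that lay on another contig. The TSS was that of the GENCODE 44 canonical transcript. A promoter with a member was a member promoter whatever else it held. Promoters "with H3K27ac after the knockdown only" had a knockdown summit within 2 kb and no shared control summit. Fragments at a summit were recovered from fold and -log10 p, taking the fold as (pileup + 1) over (background + 1) and p as a Poisson tail, to a tolerance of 0.001 in -log10 p, and gave the counting intervals of folds. Motifs were searched as exact letters on both strands in hg38. Wilson and Newcombe 95% intervals treat regions as units and cover counting error only. With 1 library per group no test between arms was made. Members and the 24 gene lists (947 entries) and 3 gene families were chosen with earlier results of these data known. Named genes were the 10 highest-scoring members, the 5 largest and smallest changes in cover and in fold, the 2 best-scoring members per list, all members of 3 lists, 8 loci of the study and the edges of each threshold, and other genes of the lists were named after their values were seen. Computations used Python 3.11.15, NumPy 2.4.6, pandas 2.3.3, SciPy 1.17.1 and pysam 0.24.0 and were tested on simulated data with known answers. A muscle marker is not reported here.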

Additional observations from a re-analysis of the deposited data

How the results depend on the processing

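The results were recomputed under 7 other ways to define the members and 3 of sequence windows or thresholds, plus 3 alternatives chosen after seeing the data. Differences in CpG-rich sequence, the MYOD E-box, the ETS motif and the TATA box kept their sign and intervals without 0 throughout, from 42.4 to 50.3, -8.36 to -2.87, 17.1 to 22.3 and -12.1 to -1.82 points. The E-box value of -2.87 came from a window of 50 bp, with -4.55 when a MYOD peak within 1 kb set both groups. The sign of the E-box difference follows in part from the split by MYOD peaks. The TATA value of -1.82 came from CpG-rich promoters alone. The members as first defined gave -8.06 points for the E-box and -9.62 points for the TATA box. The median fold ratio ranged from 1.15 to 1.24. With a reciprocal overlap of 50% between H3K27ac peaks, 4403 members remained, 84.0% of shared promoter peaks had no MYOD, 22.6% of genes had a member, the median cover ratio was 1.39, 81.9% of knockdown peaks were wider and 58.7% of summits were downstream, which follows in part since that overlap removes pairs of unequal width. Restricting H3K27ac peaks to a -log10 p of 10 or more gave 4274 members, 82.0% without MYOD, 22.4% of genes and 56.2% downstream. Cutting the lists to equal length gave 89.5% without MYOD and 89.8% wider. A -log10 p of at least 5 in all lists gave 86.5% without MYOD. Barring MYOD within 1 kb gave 76.3% without MYOD and 30.8% of genes, as that rule must. A summit limit of 1 kb gave 32.9% of genes and the TSSs of every transcript 38.9%. No paired analysis was possible because each group had 1 library. Depth and replicate spread are unknown, so no difference between arms could be set against error beyond counting.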
